A study of Mus musculus with 15 samples.

Results

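The UDP-glucuronosyltransferase genes of the Ugt2 and Ugt3 families were examined in mouse liver by RNA sequencing. The members were a fixed list of 10 genes, taken by symbol from the 37991 gene identifiers of the count table: Ugt2a3, Ugt2b1, Ugt2b5, Ugt2b34, Ugt2b35, Ugt2b36, Ugt2b37, Ugt2b38, Ugt3a1 and Ugt3a2. All 10 were found, and 9 had enough counts to be tested (Ugt2b38 did not). Whole liver was compared between young WT mice of 90 days, old WT mice of 600 days and old KO mice of 600 days that lacked S6K1, the kinase encoded by Rps6kb1, with 5 libraries in each group. All mice were female C57BL/6 animals bred from heterozygous parents, and the deletion was present in every tissue. No group of young KO mice was analysed here, so genotype was compared at 600 days alone and old KO against young WT differed in both age and genotype.

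UDP-glucuronosyltransferases sit in the membrane of the endoplasmic reticulum and join a sugar to small fat-soluble molecules, which makes them soluble enough to leave in bile or urine. Ugt2 enzymes take glucuronic acid from UDP-glucuronic acid and are known for acting on steroid hormones, bile acids and drugs. The human enzymes of the UGT3 family use other sugar donors, such as UDP-N-acetylglucosamine for UGT3A1. In these proteins the amino-terminal part binds the molecule to be modified and the carboxy-terminal part binds the sugar donor. Hepatocytes are a main site of Ugt2b expression.

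The 8 Ugt2 genes lay within a stretch of chromosome 5, from Ugt2b34 at 87318792 to 87335962 up to Ugt2b38 at 87838967 to 87853228 on NCBIM37 (mm9). All of them were on the minus strand except Ugt2b35, which was on the plus strand at 87429885 to 87442299. Ugt3a1 (9209584 to 9244787) and Ugt3a2 (9265305 to 9300710) were neighbours on the plus strand of chromosome 15. All 10 were annotated as protein coding, and none overlapped another annotated gene.

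The members differed greatly in how alike their coding sequences were. Ugt2b5 and Ugt2b38 shared 97.05% of aligned coding bases, Ugt2b5 and Ugt2b37 94.7%, Ugt2b37 and Ugt2b38 94.1%, and Ugt3a1 and Ugt3a2 93.3%. Ugt2b34 was most like Ugt2b1 (76.1%), and Ugt2a3 shared 70.9% or less with any Ugt2b gene. Between the Ugt2 and Ugt3 families the identity was 58.2% to 63.2%. In Ugt2a3 and Ugt2b1, 62.0% of bases were the same over the first part of the alignment and 78.6% over the last part. The alignment was split at the middle of the coding sequence of the gene named first. In Ugt2b5 and Ugt2b38 the order was the opposite, with 98.8% over the first part and 95.3% over the last.

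**Figure D1:**
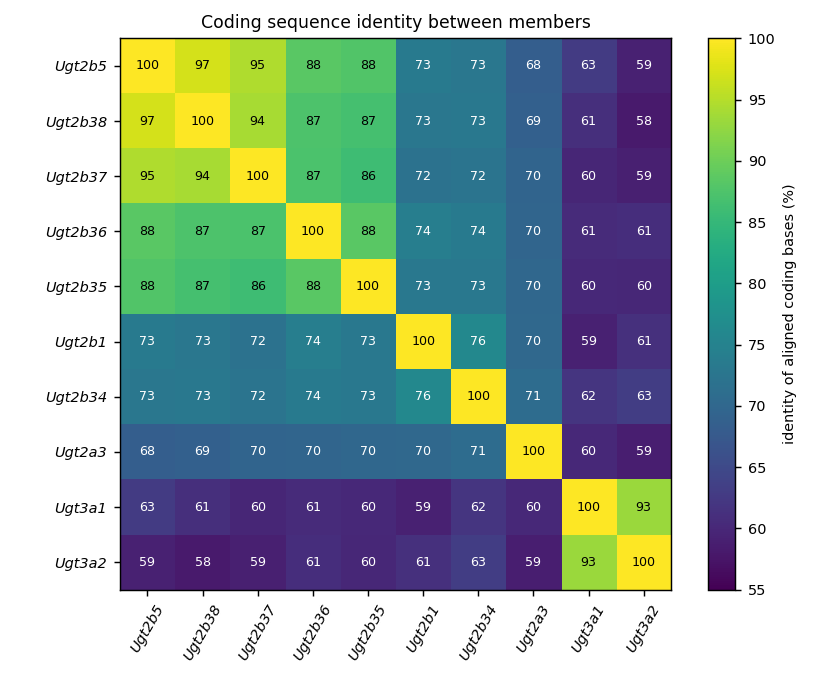
Identity of aligned coding bases (%) for every pair of the 10 genes, with genes on both axes and the value printed in each cell. Ugt2b5, Ugt2b37 and Ugt2b38 form a block of 94.1% to 97.05%, and Ugt3a1 and Ugt3a2 share 93.3%.

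This likeness limits what single-end reads of 50 bases could separate. Of the 50-base words of the Ugt3a1 exons, 54.3% had another exact copy in the genome, most of them on chromosome 15 where no gene is annotated. The share was 42.8% for Ugt2b5, 39.6% for Ugt2b38 and 16.1% for Ugt2b37, and 586 words were common to Ugt2b5 and Ugt2b38. In the other 6 members it was 8.55% (Ugt3a2), 6.90% (Ugt2b35), 4.55% (Ugt2a3), 1.52% (Ugt2b34), 0.340% (Ugt2b36) and 0 (Ugt2b1). Reads from repeated stretches may have been lost or assigned to either copy, so the levels of Ugt2b5, Ugt2b37, Ugt2b38 and Ugt3a1 are uncertain.

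RefSeq held a promoter for 9 of the 10 members, and for Ugt3a2 none was listed. The 140 bases before the annotated start are printed 5′ to 3′ from RefSeq on GRCm38.p6 for 4 of them. Ugt2b5, Ugt2b37 and Ugt2b38 are shown because these near-identical genes had very different levels, and Ugt2b36 because it had the highest level of the members per kb of exon. Capitals mark the longest run of bases that Ugt2b5, Ugt2b37 and Ugt2b38 shared.
Ugt2b5 (chr5:87140341-87140480, minus strand): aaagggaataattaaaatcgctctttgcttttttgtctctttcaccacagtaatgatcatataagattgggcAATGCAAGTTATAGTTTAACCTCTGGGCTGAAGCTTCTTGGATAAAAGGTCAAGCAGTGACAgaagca
Ugt2b37 (chr5:87254789-87254928, minus strand): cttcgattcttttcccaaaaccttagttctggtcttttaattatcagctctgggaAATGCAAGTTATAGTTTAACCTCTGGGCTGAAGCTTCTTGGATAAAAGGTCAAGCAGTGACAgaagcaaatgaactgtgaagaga
Ugt2b38 (chr5:87424204-87424343, minus strand): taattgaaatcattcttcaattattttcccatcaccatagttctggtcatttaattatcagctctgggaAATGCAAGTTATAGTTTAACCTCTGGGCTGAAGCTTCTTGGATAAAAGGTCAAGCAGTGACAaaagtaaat
Ugt2b36 (chr5:87092556-87092695, minus strand): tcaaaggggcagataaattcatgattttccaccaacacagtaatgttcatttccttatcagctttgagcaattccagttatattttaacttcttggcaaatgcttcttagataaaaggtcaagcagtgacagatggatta
The shared run was 62 bases long and lay 7 to 68 bases before the start in Ugt2b5, 24 to 85 in Ugt2b37 and 10 to 71 in Ugt2b38, and none of the other promoters among 32851 in the mouse table held it. Of the 140 bases shown, 84.3% were identical between Ugt2b37 and Ugt2b38, 80% between Ugt2b5 and Ugt2b38, and 72.9% both between Ugt2b5 and Ugt2b37 and between Ugt2b5 and Ugt2b36. Over aligned bases alone, without gaps, the last pairs shared 85.7% and 79.7%, and Ugt2b36 did not hold the run. These genes share ancestry, so their promoters are not independent, and the shared letters are a description of the sequence only.

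Total counts per library ranged from 21801754 in young WT 6 to 38065359 in young WT 1, and the old KO libraries (21984658 to 27923739) were shallower than 4 of the 5 young WT libraries. Expression is given as CPM, read counts scaled to a common library size by TMM. Rps6kb1 had 33.3 to 41.4 CPM in young WT, 34.6 to 45.4 CPM in old WT and 15.2 to 20.8 CPM in old KO libraries, so the groups of old mice did not overlap (log2 fold change -1.17, SE 0.10, adjusted p = 8.54e-06). Summed markers of hepatocytes reached 85570 to 156000 CPM. Those of pancreas acinar cells stayed between 3.79 and 6.39 CPM, with 4 of those 8 genes at 0 counts in every group. Markers of intestinal epithelium summed to 43.1 to 182 CPM and those of kidney proximal tubule to 45.2 to 116 CPM. In each group 4 of the 8 intestinal genes and 2 or 3 of the 7 kidney genes had no count.

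All members but Ugt2b37 and Ugt2b38 were abundant in liver. Per kb of exon, Ugt2b36 had the highest level at 264 ± 34.5 CPM (SD, n = 15 libraries), followed by Ugt2b5 at 212 ± 43.2, Ugt2b34 at 155 ± 30.4 and Ugt3a2 at 154 ± 14.6. Ugt2a3 (110 ± 18.7), Ugt2b1 (86.5 ± 15.3), Ugt3a1 (63.3 ± 16.2) and Ugt2b35 (60.1 ± 7.46 CPM per kb) came next. These 8 genes were within the top 5.58% of 14231 tested genes with a length, by level per kb. Ugt2b37 had 1.77 ± 0.983 CPM per kb and Ugt2b38 had 0.0390 ± 0.0336.

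Some neighbours in this order did not differ beyond their spread. Ugt2b34 was above Ugt3a2 in 8 of 15 libraries and Ugt3a1 above Ugt2b35 in 10 of 15, and their ranges overlapped. Ugt2b36 was above Ugt2b5, Ugt2b5 above Ugt2b34 and Ugt2a3 above Ugt2b1 in 15 of 15 libraries each, while Ugt3a2 exceeded Ugt2a3, and Ugt2b1 exceeded Ugt3a1, in 14 of 15. The steps from Ugt2b35 to Ugt2b37 (33.9-fold) and from Ugt2b37 to Ugt2b38 (45.4-fold) were free of overlap. When the level was taken per kb of unique 50-base words in place of exon length, Ugt2b5 moved to the first rank (438 ± 89.4 CPM) above Ugt2b36 (309 ± 40.4), and Ugt3a1 moved from rank 7 to rank 5 (166 ± 42.4).

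**Figure D2:**
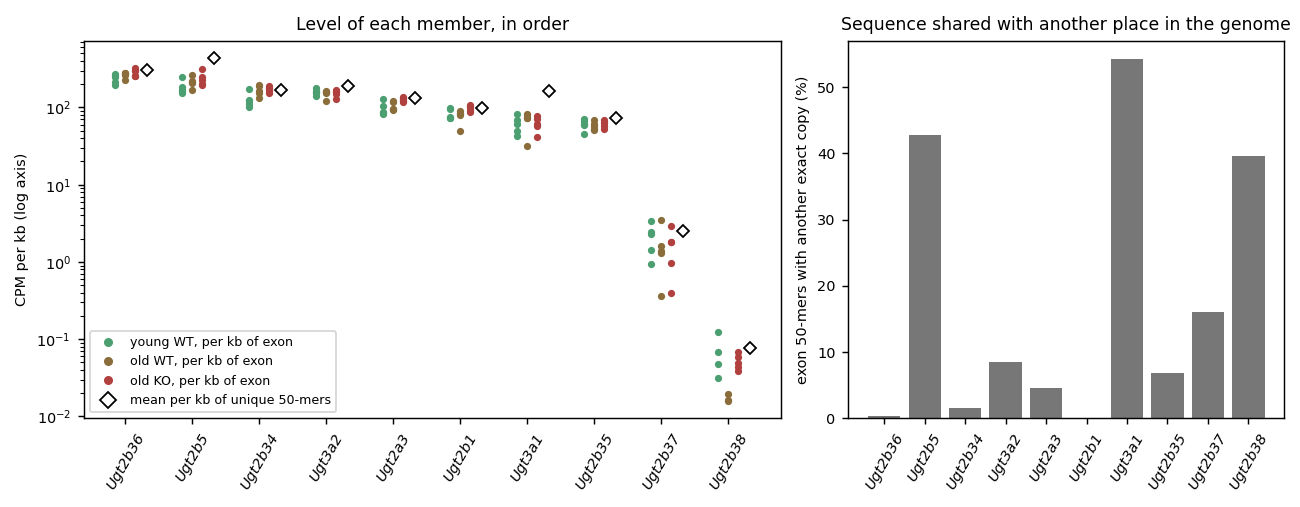
Left, level of each member on a log axis as CPM per kb of exon, 1 point per library coloured by group, with a diamond for the mean over 15 libraries per kb of unique 50-base words; libraries at 0 are not drawn (3 for Ugt2b38). Right, share of each member's exon 50-base words with another exact copy (%), which was highest for Ugt3a1, Ugt2b5 and Ugt2b38.

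Together the 10 members took 0.223% to 0.348% of the counts of a library. Their summed level was 2644 ± 317 CPM in young WT, 2919 ± 337 in old WT and 3137 ± 277 in old KO livers (SD, n = 5), and the ranges of all 3 groups overlapped. By CPM, which is not corrected for length, Ugt2b34 with its 4312 bases of exon made up 22.9% of this sum on average, Ugt2b36 18.8%, Ugt3a2 16.6% and Ugt2b5 13.7%.

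The first comparison asked how the members changed with age in WT mice. Ugt2b34 rose 1.32-fold and was the 1 member of 9 tested that passed an adjusted p of 0.05 over all 14258 genes in edgeR's quasi-likelihood test. Over all genes 18.8% were called in this comparison, and 9.92% were called higher. Fitted changes were above 0 for Ugt2a3, Ugt2b5, Ugt2b36 and Ugt3a1 and below 0 for Ugt2b1, Ugt2b35, Ugt2b37 and Ugt3a2, and none of these passed. The median log2 fold change of the 9 members was 0.10, against 0.01 for all genes tested.

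Ugt2b34 had 484, 439.6, 531, 524 and 738 CPM in the young WT libraries and 696, 846, 672, 569 and 812 CPM in the old WT libraries. All 5 old WT values were above the young WT mean, but young WT 6, at 738, lay among the old values, so the groups overlapped. The log2 fold change was 0.40 (SE 0.14, 95% interval 0.12 to 0.69, adjusted p = 0.0484). The call was at the edge of the threshold. It was kept without young WT 6 (0.55, adjusted p = 0.00441) or without old WT 7 (0.48, adjusted p = 0.0211), and leaving out any 1 of the other 13 libraries gave an adjusted p of 0.0513 to 0.120. Over the other alternatives the adjusted p ran from 0.0303 (DESeq2) to 0.185 (the 6 Ugt2b genes other than Ugt2b1 summed as 1), and limma voom gave 0.0442.

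Ugt2b5, which shares much of its sequence with Ugt2b38, had 311, 291, 315, 348 and 462 CPM in young WT and 401, 416, 393, 314 and 503 CPM in old WT livers. The old values were mostly higher, and the groups overlapped in the range from 314 to 462 CPM. The log2 fold change was 0.23 (95% interval -0.09 to 0.56, adjusted p = 0.312). For Ugt2b36 the log2 fold change was 0.15 (interval -0.08 to 0.38, adjusted p = 0.352), with 492 ± 68.2 CPM in young and 545 ± 45.9 in old WT mice (SD, n = 5).

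For Ugt2a3, Ugt2b1, Ugt2b35 and Ugt3a2 the intervals held 0. For Ugt3a2 the log2 fold change with age was -0.07 (interval -0.28 to 0.15), for Ugt2b35 -0.06 (-0.31 to 0.19), for Ugt2b1 -0.11 (-0.41 to 0.20) and for Ugt2a3 0.10 (-0.16 to 0.36). As folds, these intervals reached from 0.751 for Ugt2b1 to 1.29 for Ugt2a3, and adjusted p lay between 0.586 and 0.742. Intervals were wider for Ugt3a1 and Ugt2b37. That of Ugt3a1 ran from -0.34 to 0.66 and that of Ugt2b37 from -1.43 to 0.70 on the log2 scale.

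**Figure D3:**
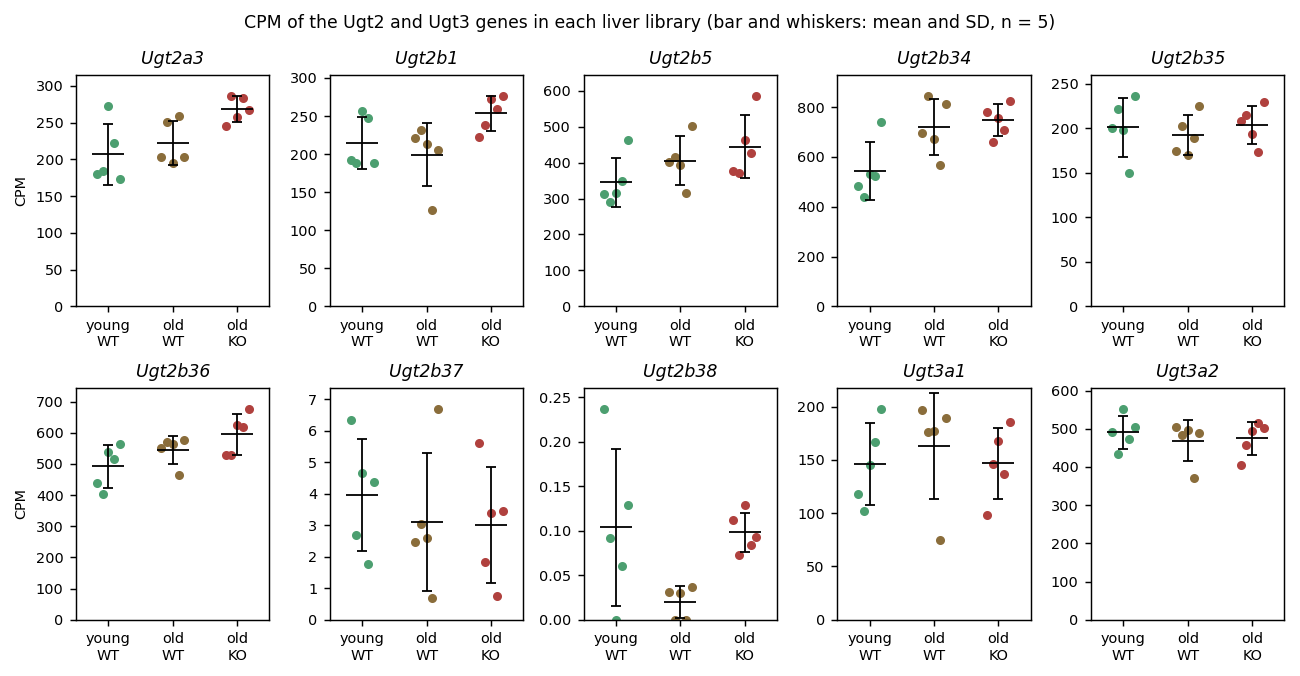
CPM of each of the 10 genes (y axis, from 0, own scale in each panel) in young WT, old WT and old KO libraries, 1 point per library, with the mean and SD of 5 libraries in black. Old WT 7 is the lowest old WT point in 7 of the 9 tested genes, and only Ugt2b38, at 0 to 9 counts, has a pair of groups that do not overlap.

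The second comparison asked how loss of S6K1 changed the members in old mice. None of the 9 tested members passed the test in edgeR, and limma voom and DESeq2 also called 0 of 9. Over all genes, 0.533% were called. At an unadjusted p under 0.05, edgeR had 2 of 9 members, Ugt2b1 and Ugt2a3, both with higher levels in old KO livers, while 4.85% of all genes had such a p and a higher level. The median log2 fold change of the members was 0.08, and that of all genes 0.00.

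Ugt2b1 had 221, 231, 214, 126 and 205 CPM in old WT and 223, 238, 272, 259.8 and 277 CPM in old KO livers. It was the member with the largest fitted difference between genotypes, at 0.35 on the log2 scale (SE 0.14, interval 0.04 to 0.65, edgeR adjusted p = 0.348). Of the 5 old KO values, 4 exceeded every old WT value, and old WT 7, at 126 CPM, stood far below the others of its group. Without old WT 7 the difference was 0.22 (adjusted p = 0.471). Ugt2b1 was the member with no exactly repeated 50-base word.

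Ugt2a3, whose human counterpart is known to act on bile acids, had 203, 251, 196, 259 and 203 CPM in old WT and 246, 287, 258, 284 and 268 CPM in old KO livers. Old KO 2, old KO 5 and old KO 6 were above every old WT value, and the groups overlapped through old WT 4 and old WT 7. The log2 difference was 0.27 (SE 0.12, interval 0.01 to 0.53, edgeR adjusted p = 0.401), and without old WT 7 it was 0.33 (adjusted p = 0.309).

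The remaining members differed less between genotypes. Ugt2b34, the member called with age, had 719 ± 112 CPM in old WT and 746 ± 64.5 CPM in old KO mice (SD, n = 5), a log2 difference of 0.05 with an interval of -0.23 to 0.34. Intervals were -0.19 to 0.23 for Ugt3a2 (0.02), -0.17 to 0.33 for Ugt2b35 (0.08), -0.10 to 0.35 for Ugt2b36 (0.13) and -0.19 to 0.46 for Ugt2b5 (0.13). Those of Ugt3a1 (-0.65 to 0.35) and Ugt2b37 (-1.13 to 1.05) were wider. Adjusted p for these 7 members lay between 0.714 and 0.993.

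Cell type markers were summed in the same livers, where 0.533% of all genes were called between genotypes. Markers of Kupffer cells and macrophages were 236 to 585 CPM in old WT and 144 to 217 CPM in old KO libraries, with 5 of 10 called lower, and summed hepatocyte markers were 99470 to 147700 CPM against 120900 to 156000, with 0 of 11 called. None of these markers was at 0 in either group. Their part in the members' values was not tested, and in whole liver fewer cells of a type and less RNA per cell cannot be told apart.

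**Figure D4:**
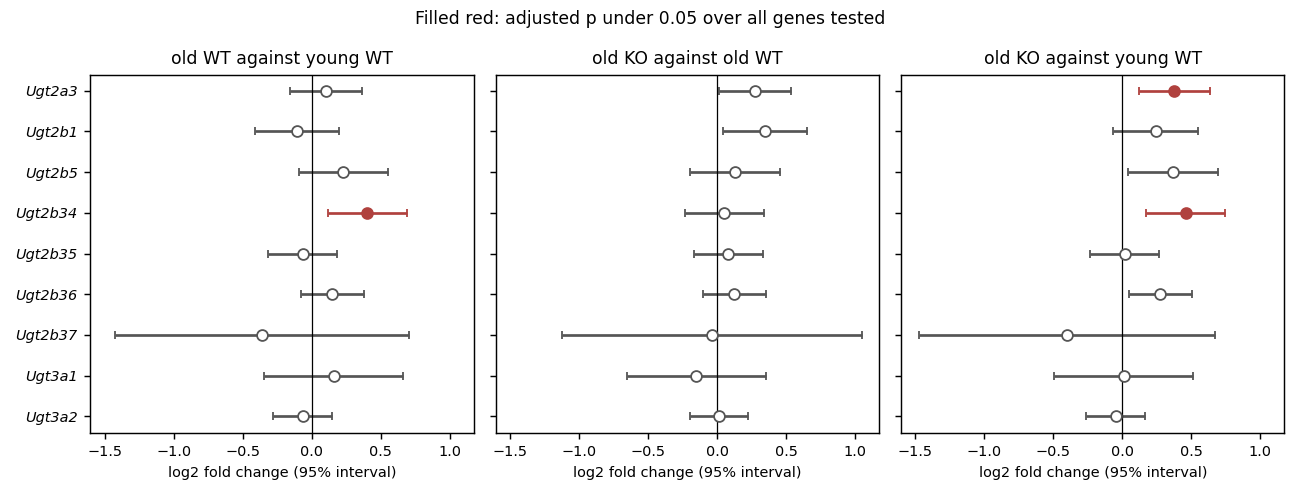
Log2 fold change (x axis) of the 9 tested members in the 3 comparisons, with 95% intervals from the edgeR fit; filled red points passed an adjusted p of 0.05 over all genes. Ugt2b34 is red in both comparisons with young WT, Ugt2a3 only in old KO against young WT, and no gene in old KO against old WT.

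Old KO livers were also compared with young WT livers, which differ in age and genotype. Ugt2b34 and Ugt2a3 were called, both higher, making 2 of 9 members, where 23.3% of all genes were called and 12.0% were called higher. Ugt2b34 was 1.37-fold higher (0.46 on the log2 scale, SE 0.14, adjusted p = 0.0241), with 782, 659, 758, 708 and 825 CPM in old KO livers. Ugt2a3 was 1.30-fold higher (0.38, SE 0.12, adjusted p = 0.0361) than in young WT livers, which had 181, 184, 273, 222 and 174 CPM. All 5 old KO values of both genes were above the young WT mean, and the groups overlapped in both.

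Ugt2b36 (0.28, interval 0.05 to 0.50, adjusted p = 0.0743) and Ugt2b5 (0.36, interval 0.04 to 0.69, adjusted p = 0.0970) had intervals above 0 but did not pass over all genes. Without young WT 6 they reached 0.33 (adjusted p = 0.0380) and 0.49 (adjusted p = 0.0207). Ugt2b1 had a log2 difference of 0.24 (adjusted p = 0.241), and Ugt2b35, Ugt3a1 and Ugt3a2 were between -0.05 and 0.02. That of Ugt2b37 was -0.40, with a wide interval of -1.48 to 0.67 (adjusted p = 0.602). The median of the 9 members was 0.24, against -0.01 for all genes. This comparison shares its libraries with the other 2, so it is not a separate line of data.

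The calls against young WT were not kept in every fit. Ugt2b34 lost its call without young WT 1, young WT 2 or young WT 4 (adjusted p 0.0617, 0.0632 and 0.0517), and Ugt2a3 without young WT 1, young WT 2, young WT 6, old KO 2, old KO 4, old KO 5 or old KO 6 (adjusted p 0.0530 to 0.0905). With the depth of each library as a further term, a fit added after the data were seen, the difference of Ugt2b34 was 0.22 (adjusted p = 0.285), that of Ugt2a3 was 0.40 (adjusted p = 0.117), and no member was called in any comparison. Without that term these differences were 0.46 and 0.38. The term also lowered the calls over all genes in old KO against young WT from 3319 to 1729. Depth differed between these groups, so this fit cannot tell depth and group apart.

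Among the 9 tested members, 0 had groups free of overlap in CPM in any comparison. Over all tested genes such a separation was found in 11.4% for old WT against young WT, 3.2% for old KO against old WT and 13.9% for old KO against young WT.

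The 2 members of low level behaved differently from the rest. Counts of Ugt2b37 lay between 59 and 241 in young WT libraries, between 19 and 182 in those of old WT mice, and between 18 and 150 in those of old KO mice. Its coefficient of variation within these groups was 45.0%, 71.0% and 61.5%, against 6.43% to 30.6% in the other tested members. Its levels were 6.34, 2.69, 4.66, 1.78 and 4.36 CPM in young WT and 2.47, 3.02, 2.59, 0.696 and 6.69 CPM in old WT livers, and 5.62, 1.82, 3.38, 0.755 and 3.43 CPM in old KO livers. Old WT 10 and young WT 1 were highest and old WT 7 and old KO 5 lowest, so each group spanned a wide range and all groups overlapped.

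Ugt2b38 had 9, 3, 0, 2 and 3 counts in the young WT libraries, 1, 0, 1, 0 and 1 in old WT and 3, 2, 3, 2 and 2 in old KO. Old KO livers thus had 12 counts against 3 in old WT, a ratio of 4.82 per scaled read with a 95% exact counting interval of 1.30 to 26.6, and these groups did not overlap. The exact 2-sided permutation test on log2(CPM + 0.1) gave p = 0.00794, the smallest that 252 assignments allow, and 0.0238 after adjustment over the 3 comparisons. That adjustment covers the comparisons of this gene alone, not the other genes, unlike the adjusted p of the fits. Without the low-count filter Ugt2b38 was fitted in edgeR too, and 0 members were called between genotypes. Against young WT, with 17 counts, the exact permutation p was 0.0714 for old WT and 0.817 for old KO (0.107 and 0.817 adjusted). These are differences of a few reads a library, at 0 to 9 counts, in a gene that shares 586 of its 1597 exon words with Ugt2b5, which had 8578 to 13689 counts, and a contribution of misassigned reads was not tested.

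Within groups, some members rose and fell together from library to library. Over all 36 pairs of the 9 tested members, the Pearson correlation of deviations from the group mean of log2 CPM was -0.42 to 0.83 with a median of 0.39 over 15 libraries, and the median was 0.33 without old WT 7. For the 15 pairs among Ugt2b1, Ugt2b5, Ugt2b34, Ugt2b36, Ugt3a1 and Ugt3a2, a set chosen after the values were seen, it was 0.38 to 0.83 with a median of 0.78. Without old WT 7 it was 0.02 to 0.85 with a median of 0.61. Ugt2a3 correlated at -0.42 to 0.15 with the other 8 members, and at -0.27 to 0.79 without old WT 7. The points share library and depth, and some members share reads, so these are descriptions with no p-value.

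Old WT 7 was the lowest old WT library in 7 of 9 tested members, Ugt3a1 (75.0 CPM against 176 to 197 in the others) and Ugt2b1 among them, and the highest for Ugt2a3 (259 CPM). In the same library, summed hepatocyte markers (147700 CPM), T and B cell markers (19.4 CPM) and bile duct markers (113 CPM) were the highest of the old WT group. Those of kidney proximal tubule (45.2 CPM) and intestinal epithelium (66.45 CPM) were the lowest of that group. Young WT 6 and old KO 6, the shallowest libraries of their groups, were the highest of their groups in Ugt2b5, Ugt2b34, Ugt2b35, Ugt2b36 and Ugt3a1. Young WT 6 had the lowest summed hepatocyte markers of all 15 libraries (85570 CPM against 130800 to 137600 in the other young WT libraries) and the highest summed markers of intestinal epithelium (182 CPM against 113 to 125 in the other young WT libraries). The part of these features in the members' values was not tested beyond the fits that left out each library or added depth.

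**Figure D5:**
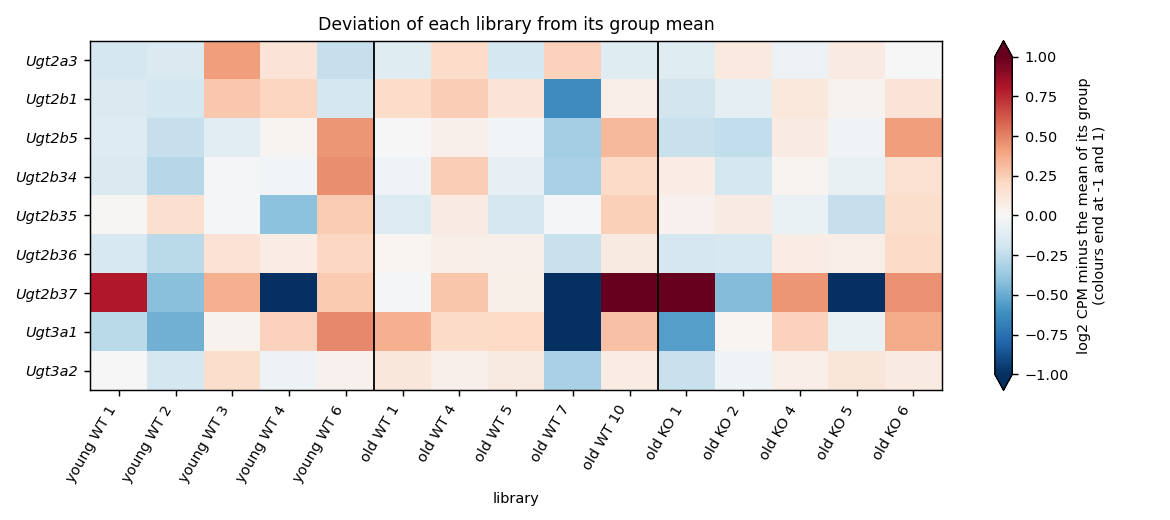
Deviation of log2 CPM from the mean of its own group for the 9 tested members (rows) in the 15 libraries (columns, black lines between groups), with colours that end at -1 and 1. Old WT 7 is below its group mean in most members and above it in Ugt2a3, and Ugt2b37 varies most.

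For the member with the largest fitted change with age, Ugt2b34, the 5 genes outside the family whose log2 CPM was most like it over the 15 libraries were Agmo (Pearson r = 0.95), Lactb (0.95), Idh1 (0.94), Pcyox1 (0.94) and Gtf2i (0.93). Idh1 encodes the cytosolic isocitrate dehydrogenase that makes NADPH. For Ugt2b1, the member with the largest fitted difference between genotypes, they were Pon1 (0.87), Inpp5a (0.87), 2810007J24Rik (0.87), Nrbp1 (0.86) and Cat (0.85), where Pon1 encodes the liver paraoxonase and Cat catalase. These are the highest of all tested genes and carry no p-value.

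Genes that feed or oppose glucuronidation were counted from a further list. With age, 1 of 11 genes of nucleotide sugar supply and hydrolysis was called, where 18.8% of all genes were called. It was Ugdh, which encodes the enzyme that makes UDP-glucuronic acid. Ugdh rose from 140 ± 28.5 CPM to 207 ± 31.6 CPM (log2 fold change 0.56, SE 0.15, adjusted p = 0.0173) and had 225 ± 37.2 CPM in old KO livers. No gene of this list was called between genotypes in edgeR, where 0.533% of all genes were called. Uap1 was just above the threshold there (0.32 on the log2 scale, SE 0.07, edgeR adjusted p = 0.0530), and its log2 fold change with age was 0.09. Against young WT, old KO livers were higher in Ugdh (0.68, adjusted p = 0.00470) and Uap1 (0.41, adjusted p = 0.00103), the enzyme that makes UDP-N-acetylglucosamine, and lower in Gusb (-0.49, adjusted p = 0.0315), the β-glucuronidase that removes glucuronic acid. The age call of Ugdh was kept in all 15 fits without a library, and so was the call of Uap1, while Gusb lost its call without young WT 1, 2 or 3 or old KO 1, 4 or 6 (highest adjusted p 0.0820). With library depth as a term, Ugdh and Gusb lost their calls in old KO against young WT, while Uap1 and the age call of Ugdh were kept. Ugp2, which makes UDP-glucose, had the highest level of the list per kb of exon (108 CPM per kb over 15 libraries). Its log2 fold change in old KO against young WT was 0.37 (adjusted p = 0.0686).

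Of 11 other UGT genes matched, 8 were tested. The share called over all genes was 18.8% with age, 0.533% between genotypes and 23.3% in old KO against young WT. With age 1 was called, Ugt1a7c (2.49, SE 0.42, adjusted p = 0.00140), at 1 to 4 counts a library in young WT and 8 to 16 in old WT. Between genotypes 0 were called, and Ugt1a9 had 73.3 ± 15.1 CPM in old WT against 38.9 ± 14.2 CPM in old KO (-0.91, adjusted p = 0.101). In old KO against young WT, Ugt1a7c, Ugt1a5 (0.96, adjusted p = 0.0434), Ugt1a6b (0.58, adjusted p = 0.00666) and Ugt1a6a (0.39, adjusted p = 0.0125) were higher and Ugt1a9 was lower (-0.86, adjusted p = 0.0155). These calls were kept in all 15 fits without a library except that of Ugt1a5, kept in 6 of 15 (highest adjusted p 0.110), and Ugt1a6a lost its call with library depth as a term. The Ugt1a genes use common exons, so the assignment of their reads is uncertain. Ugt1a1, the bilirubin-conjugating enzyme, had the highest level of them per kb of exon (81.7 CPM per kb over 15 libraries) and was called in no comparison.

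Regulators known from hepatic UGT genes were counted in the same way. Of 21 tested, 5 rose and 0 fell between young and old WT livers, where 18.8% of all genes were called and 9.92% were called higher. They were Ghr (0.81, SE 0.18, adjusted p = 0.00618), the growth hormone receptor, Esr1 (0.70, adjusted p = 0.0391), the oestrogen receptor, Stat5a (0.50, adjusted p = 0.0460), Cebpa (0.33, adjusted p = 0.0453) and Nfe2l2 (0.30, adjusted p = 0.0173), the regulator of the oxidative stress response. The calls of Ghr and Nfe2l2 were kept in all 15 fits without a library, those of Esr1, Cebpa and Stat5a in 9, 7 and 3 of 15 (highest adjusted p 0.0769, 0.112 and 0.121). With library depth as a term Esr1, Cebpa and Stat5a lost their age calls. Cebpa and Stat5a also lost them without the low-count filter, Esr1 and Stat5a with only the 10 libraries of the contrast, and Stat5a in limma voom. The median of the list was -0.06, below 0 while its 5 calls were higher. Hnf4a, with the highest level of the list per kb (150.2 CPM per kb over 15 libraries), was not called. Between genotypes 0 of 21 were called, where 0.533% of all genes were called. Against young WT, old KO livers were also higher in Foxa3 (0.55, adjusted p = 0.0427) and Stat5b (0.32, adjusted p = 0.0332), and all 5 regulators called with age were called higher there too. Foxa3 kept its call in 5 and Stat5b in 8 of 15 fits without a library. With library depth as a term, Ghr kept its call in old KO against young WT, and Foxa3, Stat5b, Esr1, Cebpa, Stat5a and Nfe2l2 lost theirs.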

How the data were processed

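Polyadenylated RNA of whole liver was measured in 15 libraries, 5 per group, grouped by their titles. The authors sequenced stranded mRNA libraries as single-end reads of 50 bases, mapped them to mm9 with TopHat and deposited raw read counts per gene from HTSeq, with no normalization. The submitters' processing notes name TopHat2 2.0.11 and DESeq2 1.18.1. The annotation and the strand and multi-mapping settings of the counting are not given in the sources used here. Symbols, positions and repeated 50-base words came from GENCODE on NCBIM37, and promoters from RefSeq on GRCm38.p6.

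Counts of 14258 genes passing filterByExpr were scaled by TMM and fitted in edgeR 4.0.16 (R 4.3.3) by the quasi-likelihood test over all 15 libraries, with Benjamini-Hochberg adjustment over all genes and a threshold of 0.05. Errors of fitted values are SE or 95% intervals, and p-values named without a tool come from this fit. Ugt2b38, which did not pass the filter, was compared by an exact permutation test with a pseudocount of 0.1. The fit was tested on simulated counts. The study gives 5 mice per group for these data, as many as there are libraries, but the labels do not tie each library to a mouse. Replicate libraries differed beyond sampling noise, and p-values measure the spread between them, which may be technical where libraries share a mouse. Counting intervals cover counting error only.

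Members and gene lists were chosen with earlier results of these data known. Named genes were the members, Rps6kb1, the called genes and the gene of highest level of the lists of other UGT genes, nucleotide sugar genes and regulators (up to 8 a list), and the 5 genes most correlated with a leading member; other lists (sex-biased liver genes and cell type markers) were given by counts. Ugt2a2 was not matched, and Cux2 and Trf, with 2 identifiers each, were left out. Alternatives were DESeq2 1.42.0, limma 3.58.1 (voom), other scalings and filters, a replicate block, 10 libraries only, 6 Ugt2b genes summed, and leaving out each library. Depth as a term was added after the data were seen.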

Additional observations from a re-analysis of the deposited data

Results flagged for a closer look

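Old WT 7 stood apart from the other 4 old WT libraries in 4 members, where its gap to the nearest library, divided by the range of the group, passed Dixon's limit for 5 samples. It had 126 CPM of Ugt2b1 against 204.8 CPM in the nearest library, 465 CPM of Ugt2b36 against 549.7 CPM, 75.0 CPM of Ugt3a1 against 176 CPM, and 372 CPM of Ugt3a2 against 483 CPM. In each of them it was the lowest. These were the 4 flags among 30 groups of 5 samples examined, where chance alone gives about 1 in 20, and the 4 are not independent because they come from the same library. Its total count of 27063911 was the lowest of its group, close to that of old WT 4 (27176274).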

How the results depend on the processing

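The number of members called with age fell from 1 to 0 under RLE scaling, without the low-count filter, with only the 10 libraries of the contrast, and with depth as a term; it was 0 to 1 on leaving out a library. Old KO against young WT had 2 members called, 1 without the filter, 0 with depth as a term and 0 to 3 on leaving out a library. No member was called between genotypes under any alternative. Replicate numbers are not said to pair the samples. The 9 same-numbered pairs correlated at -0.15 to 0.08, and pairing was not tested. Numbers 3, 7 and 10 occur in 1 group each. Under the replicate block, young WT 3, old WT 7 and old WT 10 therefore do not inform the group differences. The block gave 0 members with age and 5 in old KO against young WT. It moved all calls from 2685, 76 and 3319 genes to 899, 6 and 2334. The log2 fold change with age became 0.10 for Ugt2b1, 0.056 for Ugt2b35 and 0.035 for Ugt3a2. That between genotypes became -0.016 for Ugt2b34 and -0.056 for Ugt3a2. Under the block Ugdh, Nfe2l2, Cebpa, Esr1 and Stat5a lost their age calls, and Gusb, Foxa3, Esr1 and Stat5b theirs in old KO against young WT. DESeq2 called 3256, 302 and 3793 genes and limma voom 2753, 23 and 3265.

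Some values changed sign between fits, and for single members the cause was not tested. A sum of 6 Ugt2b genes is another quantity than any 1 of them, and Ugt2b37 took 0.116% of the members' summed CPM on average. The 6 Ugt2b genes summed gave 0.23 with age, where Ugt2b35 and Ugt2b37 alone were below 0, and 0.10 between genotypes and 0.33 in old KO against young WT, where Ugt2b37 was below 0. With depth as a term, the genotype values of Ugt2b5, Ugt2b34 and Ugt2b35 were -0.054, -0.11 and -0.012, and old KO against young WT gave -0.13 for Ugt2b35 and -0.21 for Ugt3a1. Upper quartile scaling gave -0.0015 for Ugt3a2 between genotypes and -0.0062 for Ugt3a1 in old KO against young WT. A pseudocount of 1 turned the old KO against young WT difference of Ugt2b38 to -0.0039. On leaving out a library, ranges that crossed 0 were, with age, -0.16 to 0.026 (Ugt2b1), -0.16 to 0.0084 (Ugt2b35) and -0.11 to 0.015 (Ugt3a2). Between genotypes they were -0.025 to 0.11 (Ugt2b34), -0.40 to 0.45 (Ugt2b37) and -0.061 to 0.068 (Ugt3a2). In old KO against young WT they were -0.077 to 0.084 (Ugt2b35), -0.10 to 0.15 (Ugt3a1) and -0.091 to 0.0036 (Ugt3a2). Depth limits Ugt2b38, at 0 to 9 counts. For Ugt2b37, at 18 to 241 counts, the part of depth in its spread was not tested.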

Other observations

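Genes whose liver levels differ by sex were counted in these female mice from lists written for this work. The lists were written with earlier results of these data known. Of all genes tested, 18.8% were called with age, 9.92% were called higher with age, and 0.533% were called between genotypes. Of 12 tested male-biased genes, 6 fell and 0 rose with age (median log2 fold change -1.04), and their summed level was 192 to 1175 CPM in young WT and 114 to 216 CPM in old WT livers. Of 16 tested female-biased genes, 8 rose and 1 fell (median 0.95), from 2101 to 2749 CPM up to 3972 to 9384 CPM. Between genotypes 0 of the male-biased and 1 of the female-biased genes were called, the latter higher in old KO.

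Marker lists of cell types were counted in the same way. Beside these counts stand the shares of all genes: 18.8% called and 9.92% called higher with age, and 0.533% called between genotypes. With age, 3 of 10 T and B cell markers, 2 of 7 bile duct markers and 1 of 10 Kupffer cell and macrophage markers rose, and 3 of 9 liver endothelial cell markers fell. Of 9 stellate cell markers 1 rose and 1 fell, and of 11 hepatocyte markers 1 rose and 3 fell. No marker of intestinal epithelium (3 tested), kidney proximal tubule (2 tested) or pancreas acinar cells (1 tested) was called with age. Between genotypes, 5 Kupffer cell and macrophage markers were lower in old KO livers and no gene of the other marker lists was called.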
